A study of Mus musculus with 18 samples.

Results

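The data concern 5 mouse genes in which 1 kb tiles carried more CpG methylation with the W796A mutant of DNMT1 than with WT DNMT1, namely Wdr63, Cyp26b1, Spata3, Mest and Lhx1. They were selected on the measured tile levels, out of 55413 genes of the GENCODE M21 annotation, for tiles in which all 3 W796A libraries lay above all 3 WT libraries. That contrast is therefore a description of the choice here, and no test is given for it. CpGs in each gene and in 5 kb on either side were used where every one of 18 libraries had at least 1 read. The level of a tile in a library is the sum of methylated reads over the sum of all reads, in percent. These windows held 145 of the 1539924 tiles of the series. With at least 3 shared CpGs required, 111 of 773437 tiles were left, and all counts below use these.

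The levels come from eRRBS (enhanced reduced representation bisulfite sequencing), in which DNA is cut with restriction enzymes (here MspI, BfaI and MseI) and unmethylated cytosine is converted with bisulfite. The cells are mouse embryonic stem (ES) cells with a knockout of Dnmt1, transfected with the pPyCAGIP vector and selected with puromycin. All 6 groups share this knockout and this vector, and differ in the DNMT1 they carry: WT, W796A, W465A, W464A/W465A, W465A/W796A or W464A/W465A/W796A, each with 3 biological replicates. Several stable lines were made per group, and the labels do not say whether replicates are separate lines, so the spread between them may be technical. Empty-vector cells were not used here. The table holds methylation alone, so neither the amount of DNMT1 in a line nor ES cell marker expression could be checked.

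DNMT1 copies CpG methylation onto the new DNA strand after replication. Its RFTS domain, which holds the residues changed in W464A and W465A, and its BAH domains, which hold the residue changed in W796A, contact chromatin. CpG islands, where CpGs are dense, are mostly unmethylated in ES cells, and the imprinted Mest promoter is normally methylated on the maternal allele alone. Cyp26b1 encodes a cytochrome P450 that degrades retinoic acid. Lhx1 is a LIM homeodomain transcription factor of the early embryo, kidney and nervous system. Wdr63 encodes an intermediate chain of axonemal dynein, the motor of cilia and flagella, and Spata3 is named as a spermatogenesis-associated gene.

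Sequences from 4 of the genes show the DNA on which the difference was read, each a stretch of 200 bases of the GRCm38 plus strand, 5′ to 3′, without annotated exon and chosen for its shared CpGs. Capitals mark CpGs with a read in all 18 libraries.
Wdr63 intron, chr3:146107516-146107715: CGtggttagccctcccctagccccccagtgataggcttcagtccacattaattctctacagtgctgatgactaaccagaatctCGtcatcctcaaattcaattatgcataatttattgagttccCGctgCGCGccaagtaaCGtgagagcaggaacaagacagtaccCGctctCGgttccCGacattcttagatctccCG
Cyp26b1 intron, chr6:84586607-84586806: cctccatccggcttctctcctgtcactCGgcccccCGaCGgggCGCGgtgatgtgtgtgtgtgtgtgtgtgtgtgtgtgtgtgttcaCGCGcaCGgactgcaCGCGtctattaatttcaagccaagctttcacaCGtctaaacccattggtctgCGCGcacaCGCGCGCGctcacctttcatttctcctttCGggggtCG
Mest intron, chr6:30737786-30737985: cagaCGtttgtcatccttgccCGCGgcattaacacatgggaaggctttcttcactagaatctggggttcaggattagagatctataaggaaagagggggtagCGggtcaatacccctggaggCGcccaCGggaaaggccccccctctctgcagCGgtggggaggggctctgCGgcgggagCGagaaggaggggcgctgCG
Lhx1 intron, chr11:84523039-84523238: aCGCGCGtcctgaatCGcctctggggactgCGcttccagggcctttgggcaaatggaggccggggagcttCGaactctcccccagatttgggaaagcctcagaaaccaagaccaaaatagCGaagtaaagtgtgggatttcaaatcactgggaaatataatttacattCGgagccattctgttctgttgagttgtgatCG
Over the 10 CpGs in capitals of the Wdr63 stretch, the level was 13.6% ± 10.02 (SD, n = 3) in WT and 75.4% ± 14.0 in W796A. In the Cyp26b1 stretch, which is dense in CGCG, 19 CpGs stood at 15.7% ± 10.98 and 53.6% ± 4.995. The Mest stretch, with 10 shared CpGs, had 4.81% ± 5.16 in WT and 33.1% ± 15.3 in W796A. The Lhx1 stretch, whose tile was chosen after its values were seen, had 10.3% ± 1.10 and 28.0% ± 2.02 over 9 CpGs. In W465A/W796A the same 4 stretches had 2.38% ± 2.97, 4.43% ± 2.86, 1.19% ± 2.06 and 3.51% ± 0.86, below the WT mean of each.

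In all, 16 of the 111 tiles had every W796A library above every WT library, 14.4%, where 2.16% of all tiles of the series did. Mest and Lhx1 held 5 each, Cyp26b1 3, Wdr63 2 and Spata3 1. These gained tiles hold 313 of the 1285 shared CpGs. The reverse, every W796A library below every WT library, was seen in 2 tiles, both in the 3′ part of Mest, against 1.2% of all tiles. Leaving a library out can only keep or raise this count. It was 25 (22.5%) without WT replicate 2, where 7.20% of all tiles met the looser rule, and 38 (34.2%) without W796A replicate 1, where 22.8% did. W796A replicate 1 was the lowest of its group over all tiles, with a mean tile level of 57.5% where its group mean was 71.6% ± 12.4 (SD, n = 3). At the border of the choice, the Lhx1 tile from 84520001 to 84521000 had its lowest W796A library 0.369 points above its highest WT library. The Cyp26b1 tile next to its leading one, from 84587001 to 84588000, missed by 0.0289 points.

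Over the whole genome the groups differed widely, and the gained tiles have to be read against that. Mean tile levels were 71.04% ± 8.28 (SD, n = 3) in WT, 71.6% ± 12.4 in W796A, 30.2% ± 6.31 in W465A and 50.6% ± 3.995 in W465A/W796A. W464A/W465A had 22.1% ± 3.13 and the triple mutant W464A/W465A/W796A 21.4% ± 2.42. CpG calls per library lay between 59776439 and 138978763.

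Wdr63 carried the largest difference. It lies on the minus strand of chromosome 3 (GRCm38, 146040526 to 146108130), and its leading tile, from 146107001 to 146108000, spans exon, intron and UTR sequence just downstream of the start site at 146108130. With WT DNMT1 the tile stood at 1.89%, 16.5% and 20% in replicates 1, 2 and 3. With W796A it stood at 58.6%, 83.2% and 61.1%. Every W796A library was thus far above every WT library, and the group means differed by 54.8 points (SE 9.60). Of all tiles of the series with every W796A library above, 18 had a difference as large, this tile included. Coverage was 85 to 315 reads per library over 15 shared CpGs. All 15 had a pooled level at least 10 points higher in W796A, and 13 had every W796A library above.

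Where the Wdr63 difference ended was not measured on either side, for want of shared CpGs nearby. Inside the gene, no shared CpG lay between the bin ending at 146105901 and the bin starting at 146107302. In 200 bp bins the difference was 47.0, 62.2 and 58.2 points, over 3, 9 and 1 CpGs. These bins run from 100 bp below to 300 bp above the middle of the tile on the plus strand. In the bin at 500 bp it was 38.9 points, over 2 CpGs with as few as 4 reads in a library. There not every W796A library lay above every WT library. In the next tile, from 146108001 to 146109000, the 3 shared CpGs all lay upstream of the gene, between 146108502 and 146108701. They were methylated in both groups, at 78.7% ± 28.4 (SD, n = 3) in WT and 70.0% ± 27.1 in W796A. The other gained tile of Wdr63, from 146092001 to 146093000 inside the gene, was already at 90.5% ± 2.61 in WT and at 96.9% ± 3.12 in W796A. Its 4 CpGs had as few as 8 reads in a library. Of the 2 gained tiles, only the leading one went from a low to a high level.

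In the leading Wdr63 tile the high level was present with W796A alone. W465A/W796A libraries had 3.14%, 6.76% and 3.33%, all far below the 3 W796A libraries, and the triple mutant had 9.88%, 5.03% and 1.53%. W465A had 14.1%, 4.23% and 9.79%, and W464A/W465A had 2.70%, 7.49% and 10.8%. These 4 mutants overlapped each other. W465A/W796A minus W465A was -4.96 points (SE 3.09). By the quasi-binomial tile model, fitted to the 12 libraries of these 4 groups, its adjusted p was 0.119, so it was not called. A tile was called here at an adjusted p (Benjamini-Hochberg over 773437 tiles) under 0.05 and a pooled difference of at least 10 points. The same contrast was called in the neighbouring tile, on 3 CpGs upstream of the gene with as few as 7 reads in a library. There W465A/W796A stood 39.7 points higher than W465A (adjusted p 0.0116 by the tile model).

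**Figure D1:**
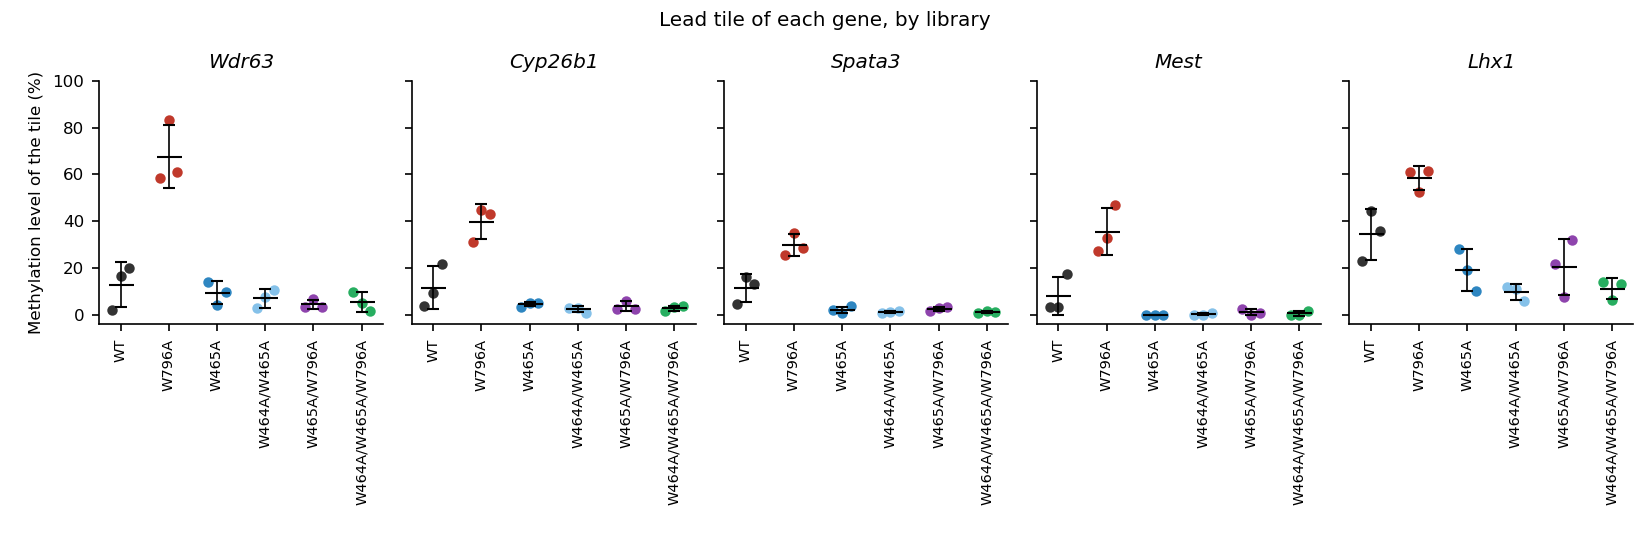
Methylation level of the leading tile of each gene in percent (vertical axis) for every library (points) by group, with the group mean and SD (bars, n = 3). W796A libraries stand highest in all 5 panels, and the other mutants lie near or below WT, for Wdr63 between 1.53% and 14.1%.

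Cyp26b1 gained methylation inside an otherwise unmethylated stretch. The gene lies on the minus strand of chromosome 6 (84571414 to 84593908), and its leading tile, from 84586001 to 84587000, is intronic, with its middle 1179 bp downstream of the nearest annotated start. WT libraries had 3.79%, 9.13% and 21.9%, and W796A libraries 31.1%, 44.8% and 43.2%, without overlap. The means differed by 28.1 points (SE 6.89), over 35 shared CpGs and 111 to 687 reads per library. A difference as large was found in 1700 tiles of the series with every W796A library above. Within the tile the difference sat on 1 side: the bins 100, 300 and 500 bp above its middle differed by 41.9, 32.3 and 17.4 points. No other bin within 3 kb had every W796A library above every WT library. Of the 35 CpGs, 28 were at least 10 points higher in pooled reads and 15 were higher in every library.

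Tiles flanking the Cyp26b1 gain stayed low in every group. From 84585001 to 84586000 the level was 2.20% ± 1.17 (SD, n = 3) in WT and 3.03% ± 0.40 in W796A, and from 84587001 to 84588000 it was 4.03% ± 3.16 and 8.60% ± 1.201. Where the tile is laid matters as a result: moved 500 bp lower, the tile held a difference of 6.20 points. With at least 5 reads required per CpG it was 41.0 points. The other gained Cyp26b1 tiles lie in the downstream flank, from 84567001 to 84568000 and from 84569001 to 84570000, with WT at 72.4% ± 4.35 and 72.1% ± 12.5 and W796A at 83.6% ± 4.94 and 90.3% ± 1.39. They were methylated before any gain and rest on 5 and 3 CpGs.

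With the second mutation the intronic Cyp26b1 tile was low. W465A/W796A libraries had 2.60%, 6.05% and 2.43%, all below the lowest W796A library at 31.1%. Triple mutant libraries had 1.38%, 3.17% and 3.604%. The W465A libraries, at 3.38%, 4.96% and 5.10%, overlapped those of W465A/W796A, with a difference of -0.79 points (SE 1.30) and an adjusted p of 0.559 by the tile model. The flanking tile from 84567001 to 84568000 behaved otherwise. There W465A/W796A had 68.2%, 81.0% and 65.6% against 35.6%, 53.3% and 45.2% in W465A, with no overlap, 25.4 points higher in pooled reads (adjusted p 0.0233). It was the only gained tile called in that contrast.

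Mest had the broadest gain. The gene lies on the plus strand of chromosome 6 (30723547 to 30748465), and 4 adjacent gained tiles run from 30736001 to 30740000, around the start sites of shorter transcripts near 30738050. A further gained tile lies from 30732001 to 30733000, next to the transcript start at 30731968. In the leading tile, from 30737001 to 30738000, WT libraries had 3.43%, 3.37% and 17.2%, and W796A libraries 27.3%, 32.6% and 46.8%. The difference was 27.6 points (SE 7.43), over 24 shared CpGs and 93 to 267 reads per library. Among tiles of the series with every W796A library above, 1872 had one as large. All 24 CpGs were at least 10 points higher in pooled reads, and 9 were higher in every library.

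The next Mest tile, from 30738001 to 30739000, holds the start sites and had 53 shared CpGs with up to 835 reads in a library. WT libraries had 2.16%, 4.67% and 2.42%, and W796A libraries 17.4%, 31.8% and 40.1%. Replicate 3 of W796A was the highest and replicate 1 the lowest there. Levels in WT and W796A were 27.4% ± 5.36 (SD, n = 3) and 52.2% ± 12.7 in the tile from 30736001, and 5.11% ± 3.77 and 25.3% ± 12.8 in the tile from 30739001. A sum of reads cannot tell partial methylation in all cells from full methylation in some cells or on 1 allele.

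By 200 bp bins the Mest difference ran on both sides of the leading tile. Bins with every W796A library above every WT library were found from 1700 bp below to 1900 bp above its middle, with differences between 12.5 and 36.2 points. Farther along the gene, 2 tiles of few CpGs went the other way. They were 2 of the 111 tiles of the 5 genes, where 1.2% of all tiles had every W796A library below every WT library. From 30744001 to 30745000, WT libraries had 95.5%, 100% and 100% and W796A libraries 70.0%, 90.9% and 87.5%, over 5 CpGs with as few as 10 reads in a library. From 30747001 to 30748000, where Copg2 overlaps Mest, the levels were 94.9% ± 4.92 and 83.1% ± 11.3 over 4 CpGs.

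In W465A/W796A the gained Mest tiles had group means between 0.08% and 7.95%. In the leading tile W465A libraries all stood at 0%, W464A/W465A at 0%, 0% and 0.81%, W465A/W796A at 2.31%, 0% and 0.91%, and the triple mutant at 0%, 0% and 1.73%. W465A/W796A minus W465A was 1.07 points (SE 0.67), with an adjusted p of 0.0809 by the tile model. In the tile with the start sites the 4 mutants had group means of at most 0.42%. W465A/W796A libraries lay below every WT library in 4 of the 5 gained Mest tiles, where 45.4% of all tiles did so. The WT libraries had a part in choosing these tiles. Outside the gained tiles, 7 of 14 Mest tiles were called higher in W465A/W796A than in W465A. All 7 were among the 12 Mest tiles with a WT level of 50% or more. Over the series, 41.9% of all tiles and 44.2% of those at that WT level were called higher.

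**Figure D2:**
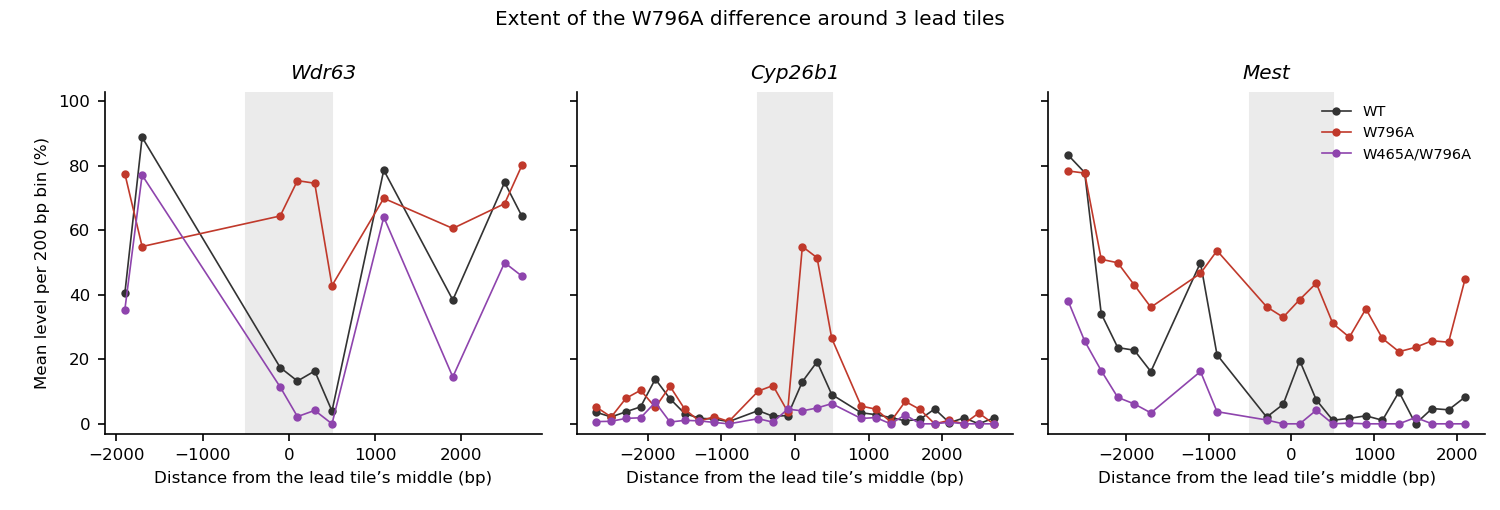
Mean level in 200 bp bins (vertical axis, percent, n = 3 libraries) against the distance from the middle of the leading tile (horizontal axis, bp, on the plus strand, tile shaded) for WT, W796A and W465A/W796A. In Cyp26b1 the W796A level stands out at 100 to 500 bp, with differences of 41.9, 32.3 and 17.4 points, whereas in Mest it lies above WT in every bin from 1700 bp below to 1900 bp above the middle except the bin at -1100 bp, which holds 1 CpG.

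Spata3 (plus strand of chromosome 1, 86016816 to 86029958) had 1 gained tile, from 86018001 to 86019000, at the annotated transcript start at 86018068. WT libraries had 4.53%, 16.3% and 13.2%, and W796A libraries 25.7%, 35.0% and 28.7%. The difference was 18.4 points (SE 4.46) over 26 shared CpGs. Of these CpGs, 19 were at least 10 points higher in pooled reads and 9 were higher in every library. The difference was the smallest of the 5 leading tiles, and 6417 tiles of the series with every W796A library above had one as large. W465A/W796A had 1.53%, 2.68% and 3.12%, below every WT library, and the triple mutant 0.84%, 1.76% and 1.16%. W465A, at 1.86%, 0.86% and 3.54%, overlapped W465A/W796A, with a difference of 0.36 points (SE 0.91, adjusted p 0.802 by the tile model).

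At Lhx1 (minus strand of chromosome 11, 84518284 to 84525535) the gained tiles were spread over the locus, in the gene and both flanks. Its leading tile, from 84514001 to 84515000 in the downstream flank, had 22.9%, 44.5% and 35.9% in WT and 61.0%, 52.6% and 61.5% in W796A. Its difference of 23.9 points (SE 6.93) did not hold under other settings: with at least 5 reads per CpG it was -1.71 points. It was 0.40 points with the tile 500 bp lower, 13.0 points with the tile 500 bp higher and 12.2 points as a mean over CpGs. Only 1 of the 12 shared CpGs was higher in every W796A library. In pooled reads 10 were higher, 8 of them by at least 10 points. A difference of 23.9 points or more was found in 3213 tiles of the series with every W796A library above.

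Inside Lhx1 the libraries of a group lay closer together. The intronic tile from 84523001 to 84524000 had 9.17%, 9.21% and 8.89% in WT and 22.1%, 25.0% and 23.1% in W796A, a difference of 14.3 points (SE 0.87) with little spread in either group. The tile from 84524001 to 84525000, of exon, intron and UTR, had 2.04%, 3.44% and 2.33% against 7.76%, 14.0% and 11.05%. The tile from 84520001 to 84521000 went from 8.15% ± 4.36 (SD, n = 3) to 14.5% ± 4.11, and the upstream one from 84526001 to 84527000, which Lhx1os overlaps, from 1.59% ± 1.13 to 3.88% ± 0.27. Gains thus lay on both sides of the start site at 84525535, while the tile across it had 0.62% in WT and 0.99% in W796A.

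W465A/W796A libraries were low at the intronic Lhx1 tile as well, at 2.39%, 3.91% and 3.73%, below every WT library. W465A had 5.75%, 5.10% and 2.68%. The difference was -1.17 points (SE 1.05, adjusted p 0.355 by the tile model). The triple mutant, at 6.79%, 4.41% and 5.06%, was above all 3 W464A/W465A libraries, at 1.49%, 3.30% and 1.69%. That difference, 3.26 points (SE 0.91), had an unadjusted p of 0.0195 and an adjusted p of 1. In the leading Lhx1 tile the libraries of W465A/W796A varied more, at 21.6%, 7.69% and 31.8%.

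Read depth over Lhx1 differed between libraries together with that of chromosome 11. The share of calls on chromosome 11 was 9.44%, 9.58% and 6.67% in WT replicates 1, 2 and 3, and 7.59%, 6.95% and 6.66% in W796A. It was 9.49%, 7.43% and 9.01% in W465A/W796A, 9.03% in replicate 3 of the triple mutant and at most 6.76% in the other triple mutant libraries, in W465A and in W464A/W465A. The part of chromosome 11 depth in the Lhx1 values was not tested.

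**Figure D3:**
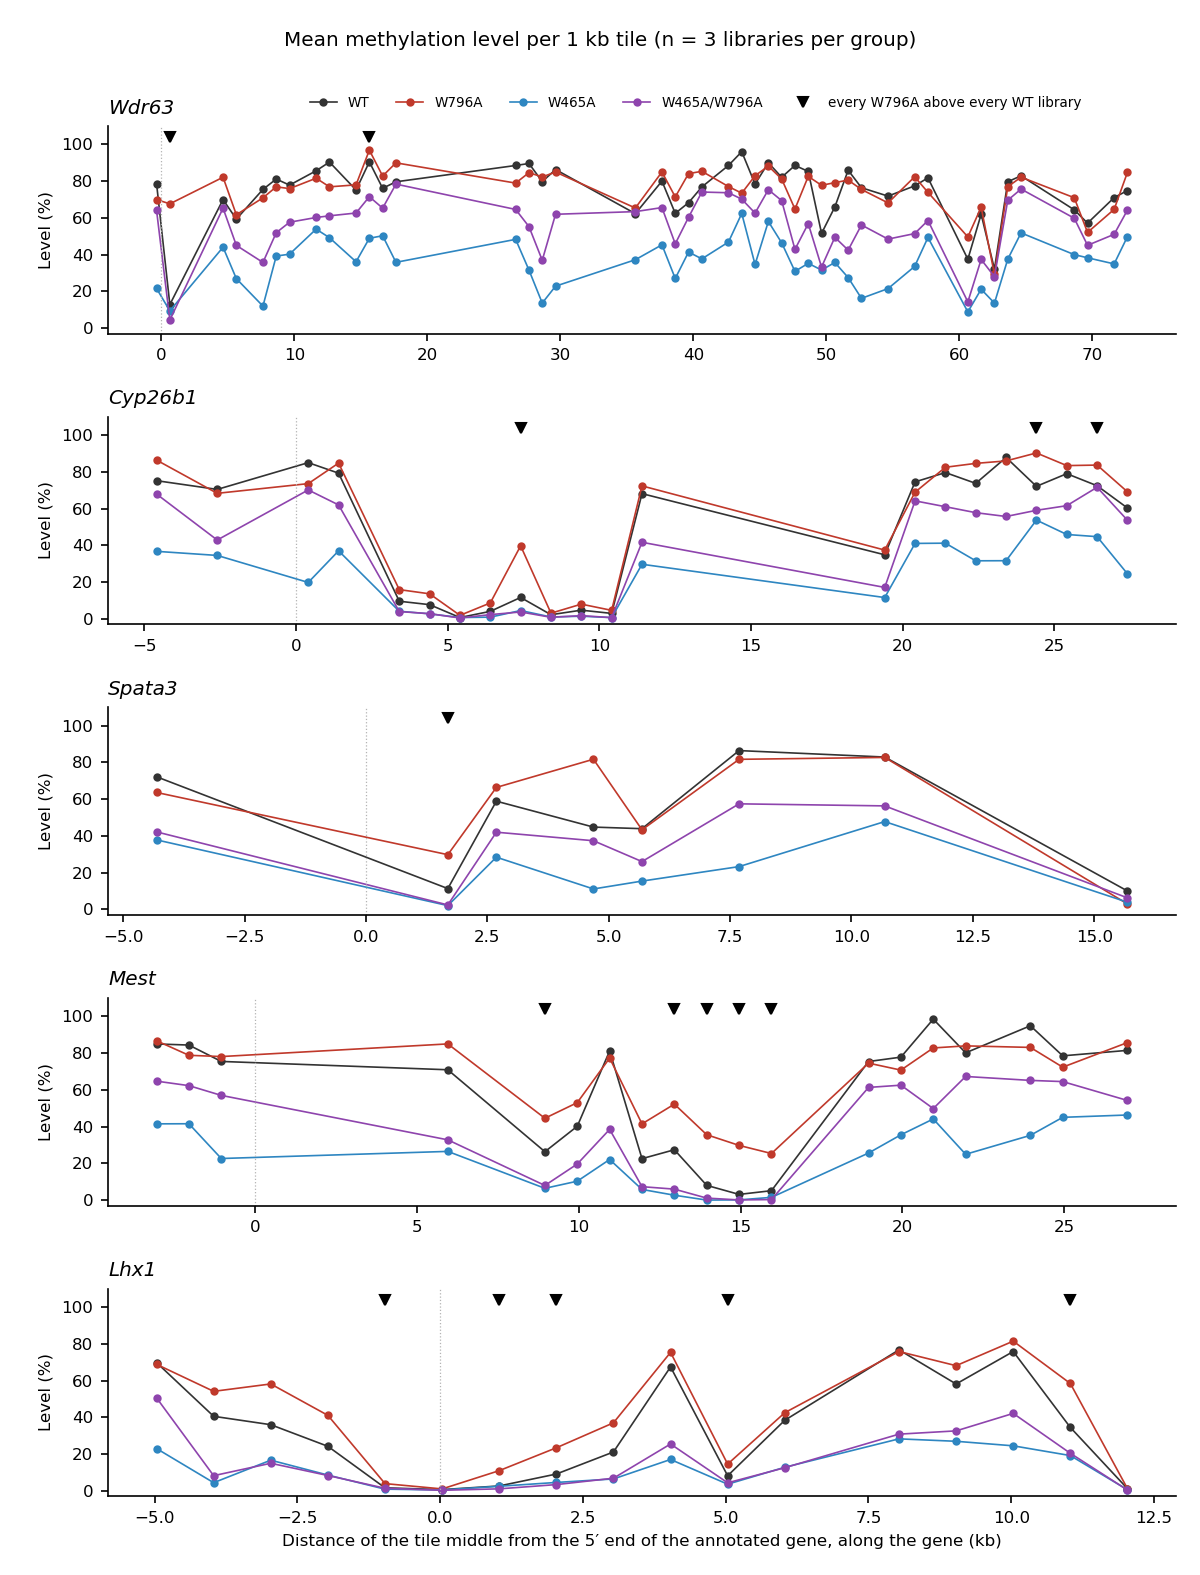
Mean level per 1 kb tile (vertical axis, percent, n = 3 libraries) along each gene (horizontal axis, kb from its annotated 5′ end) for WT, W796A, W465A and W465A/W796A, with triangles over tiles where every W796A library lay above every WT library. Of the 16 triangles, 10 stand over tiles with a WT mean under 20%, and in most tiles with high WT levels the W465A/W796A line runs above the W465A line.

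Across the gained tiles, levels were far lower with W796A and an RFTS mutation together than with W796A alone. Medians over the 16 tiles of the group means were 11.5% for WT and 37.6% for W796A. The median for W465A was 4.02% and for W465A/W796A 4.01%, while W464A/W465A had 2.21% and the triple mutant 2.41%. All 3 W465A/W796A libraries lay below all W796A libraries in 15 of 16 gained tiles, where 38.3% of all tiles did so. The exception was Cyp26b1 from 84567001. For the triple mutant the count was 16 of 16, against 92.5% of all tiles. W465A/W796A lay below every WT library in 8 of 16, and 45.4% of all tiles did. These comparisons use the W796A or WT libraries that chose the tiles, so they describe how low the level was and carry no test. The median difference, W465A/W796A minus W796A, was -28.5 points.

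Whether W796A raised methylation on top of W465A was tested with libraries the choice did not use. Of the 16 gained tiles, 1 was called higher in W465A/W796A than in W465A and 0 lower, where 41.9% of all tiles were called higher and 0.00427% lower. Without a test, every W465A/W796A library lay above every W465A library in 1 of 16, against 47.5% of all tiles. Of the 95 other tiles of the 5 genes, 36 were called higher and 0 lower. A tile that was not called is not thereby shown to be unchanged. Median differences of group means were 0.62 points in the gained tiles and 16.3 points in the others. Between genes, Wdr63 had 22 of 45 tiles called higher, Mest 7 of 19, Cyp26b1 5 of 22, Spata3 2 of 8 and Lhx1 1 of 17. The call of the gained tile was lost without W465A replicate 1 or 3, or W465A/W796A replicate 1 or 2. The count of 36 was 22 without W465A replicate 2, 21 without W465A replicate 3, 15 without W465A/W796A replicate 1, 18 with all 18 libraries fitted and 17 by limma.

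The WT level of a tile went with this difference. Over the series, 2.65% of tiles with a WT mean under 20% were called higher in W465A/W796A than in W465A, against 38.9% at 20% to 50% and 44.2% at 50% or more. Of the tiles of the 5 genes, 0 of 20, 2 of 15 and 35 of 76 were called in these classes, and 10, 3 and 3 were gained. The gained tiles are thus mostly tiles of the class in which few tiles anywhere were called. At low WT levels the W465A level is also low, with a median of 0.79% over all such tiles. With no minimum difference required for a call, the counts were 1 of 16 gained and 37 of 95 other tiles. Gains in W796A were more frequent in that class over the whole series, at 9.50% of tiles, against 4.16% and 1.63%.

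Lhx1 had few calls at higher WT levels too. Of its tiles with a WT mean from 20% to 50%, 0 of 6 were called, and of those at 50% or more 1 of 5, from 84515001 in the downstream flank. In the class from 20% to 50% its tiles had a median difference of 0.08 points between W465A/W796A and W465A, where all tiles of that class had a median of 13.8 points. Tiles of chromosome 11 in the same class had a median of 13.2 points and were called in 43.8%. In the upstream flank, from 84529001 to 84530000, the level was 40.5% in WT, 54.1% in W796A, 4.38% in W465A and 8.20% in W465A/W796A. This tile was chosen after its values were seen.

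The other contrasts gave few calls in the gained tiles. W464A/W465A/W796A against W464A/W465A gave 0 calls among the 16 gained and 0 among the 95 other tiles by the quasi-binomial model, where 0.000905% of all tiles were called higher and 0% lower. At an unadjusted p under 0.05 there was 1 gained tile, the intronic Lhx1 tile, and 1 other tile, and limma called 0 in the whole series. Against W465A/W796A, the triple mutant was called lower in 1 of 16 gained and 68 of 95 other tiles, and in 78% of all. It was called higher in 0 of the gained and other tiles, against 0.000646% of all. The gained tiles had a median W465A/W796A level of 4.01%, which is less than the minimum difference of a call. A tile at such a level could not be called lower, so 1 of 16 cannot be set against the 78%. The test of whether W796A acted differently on W465A than on W464A/W465A called 0 of 16 gained and 7 of 95 other tiles, with 11.4% of all called higher and 0.00168% lower. Median levels of the gained tiles in these 4 groups lay between 2.21% and 4.02%, less than the minimum difference of a call. So 0 of 16 cannot be set against the 11.4%. The smallest adjusted p among the gained tiles was 0.0867 by the tile model. Of the gained tiles 2, both in Lhx1, had an unadjusted p under 0.05 in that test, with a lower value in the W465A background. Limma called 0 tiles of the series in it.

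**Figure D4:**
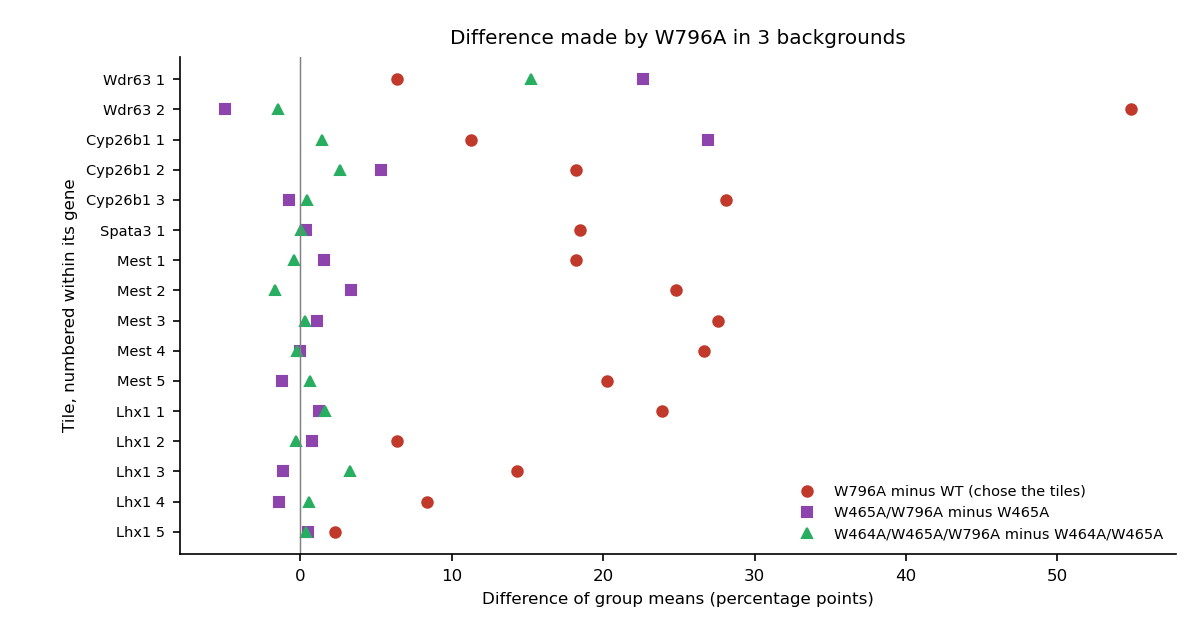
Difference of group means in percentage points (horizontal axis) for the 16 gained tiles (vertical axis, numbered along the chromosome within each gene): W796A minus WT, which chose the tiles, W465A/W796A minus W465A and W464A/W465A/W796A minus W464A/W465A. The differences on top of W465A have a median of 0.62 points and those on top of W464A/W465A a median of 0.42 points, and the exceptions above 10 points are a Wdr63 and a Cyp26b1 tile already methylated in WT.

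The gained tiles were rich in CpGs, a property the choice did not use. They held a median of 34 reference CpGs, against 17 in the other tiles of these genes and 11 in all tiles, and 62.5% had more than 20, against 36.8% and 11.8%. GC content had medians of 51.8%, 48.1% and 44.9%. Of the 16 gained tiles, 10 had a WT mean under 20%. Their CpG content was not compared with that of other tiles at a like WT level. The letters TGCCGC, which the zinc finger protein ZFP57 is known to bind in imprinted regions when their CpG is methylated, were searched on both strands, where the reverse complement reads GCGGCA. They occurred in 4 of 16 gained tiles (25%), in 12.6% of the other tiles and in 10.6% of all. Within Mest the leading tile held 5 matches and the tile with the start sites 7. A CpG-rich tile has more chance to hold these letters, and a match is not a site.

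Related genes were taken from 5 lists, each holding 1 member. Tiles at the edge of a window were counted whole here, with CpGs outside it. LIM homeodomain genes had gained tiles most often: 37 of 332 tiles outside Lhx1, or 11.1%, against 2.16% of all tiles. Isl2 had 8 of 12 tiles, and Lhx2, Lhx5 and Lhx6 had 5 each. These encode transcription factors of neural development. Among all tiles with a WT mean under 20% the share was 9.50%. Without the member, the share was 4.24% for genes of retinoic acid metabolism and signalling, 2.77% for maternally methylated imprinted genes, 2.94% for spermatogenesis-associated genes and 1.40% for axonemal dynein subunits. The dynein share was thus below that of all tiles. The next counts include the member genes. Called higher in W465A/W796A than in W465A were 86 of 349 LIM homeodomain, 129 of 399 retinoic acid and 145 of 381 imprinted tiles. So were 210 of 519 spermatogenesis-associated and 593 of 1256 dynein tiles, against 324242 of 773437 tiles of the series (41.9%).

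The tiles most like each leading tile were sought by the root mean square difference over the 18 libraries, among tiles in protein-coding genes or near them. For Cyp26b1 it was a Pdgfra tile (chromosome 5, 75151001 to 75152000), 1.94 points away, with 11.6% ± 10.4 (SD, n = 3) in WT, 37.1% ± 6.84 in W796A and 1.82% ± 1.62 in W465A/W796A. Pdgfra encodes a receptor for platelet-derived growth factor. For Spata3 it was a Vsnl1 tile at 1.94 points, with 13.7% ± 3.82 in WT and 28.4% ± 5.64 in W796A. For Wdr63 the nearest was a Ubxn2b tile at 7.25 points, with 17.8% ± 11.98 in WT, 55.8% ± 20.95 in W796A and 2.57% ± 0.41 in W465A/W796A. The nearest for Mest lay in Gm36079, 3.36 points away, and for Lhx1 in Pitrm1, 6.23 points away.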

How the data were processed

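The authors deposited, per the file headers, 1 table of counts, with the methylated reads and the total reads of each CpG in each library. Cutadapt 1.2.1, Bismark 0.18.1 and Bowtie 1.2 and the builds mm10 and GRCm38 are named in the submitters' processing notes, without settings. Whether duplicates were removed is not given in the sources used here, so counts of reads need not be independent molecules. The 21867550 listed positions are each the C of a CpG of the GRCm38 reference, and features come from GENCODE M21.

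Counts were summed per 1 kb tile over CpGs with at least 1 read in all 18 libraries, and tiles with at least 3 such CpGs were used. Read counts are given with the values for some of the tiles only. A quasi-binomial logistic model was fitted to the summed counts of the 12 libraries other than WT and W796A. Its overdispersion was squeezed across tiles (prior 2.25, with 21.8 prior and 8 residual degrees of freedom), followed by an F test and Benjamini-Hochberg adjustment over 773437 tiles, for 4 contrasts. The script was tested on simulated data with few changed tiles, most of which it did not call. Python 3.11.15, numpy 2.4.6 and scipy 1.17.1 were used, and limma 3.58.1 in R 4.3.3, on log2 ratios of counts with 0.5 added, as an alternative. Standard errors of differences treat libraries as unpaired.

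The named genes are the 5 members. The leading tile of a gene has the largest W796A minus WT difference among its gained tiles. Members, gene lists and alternatives were chosen with earlier results of these data known.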

Additional observations from a re-analysis of the deposited data

Results flagged for a closer look

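In the Lhx1 tile from 84524001 to 84525000, every W796A library lay above every WT library, by 8.33 points in the means, while every W465A/W796A library lay below every W465A library, by -1.40 points. W465A libraries had 2.67%, 2.72% and 1.93%, and W465A/W796A libraries 0.68%, 1.62% and 0.81%. The directions were thus opposite in the WT and W465A backgrounds, the second at levels of at most 2.72%. The difference between these backgrounds was not tested, and the share of all tiles with the second direction is not given. The first direction is the one by which the tile was chosen. The second had an adjusted p of 0.0807 by the quasi-binomial tile model.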

How the results depend on the processing

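The count of gained tiles, 16 of 111, was 11 of 43 with at least 5 reads per CpG and 13 of 111 as a mean over CpGs. It was 13 of 87 with 1 kb flanks, 17 of 108 with tiles shifted by 500 bp and 29 of 140 with 500 bp tiles. It lay between 16 and 38 when 1 WT or W796A library was left out. Of the differences of W796A minus WT in the 5 leading tiles, 46 alternative values moved by less than 1 SD between replicates and 8 by more. The Lhx1 value turned to -1.71 points with at least 5 reads per CpG. Of the alternative tests in these tiles, 355 kept their side of the threshold. The remaining test, the triple mutant against W465A/W796A in the leading Lhx1 tile, passed without W465A/W796A replicate 2, at -13.3 points and an adjusted p of 0.0220.

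Over all tiles, W465A/W796A against W465A gave 324275 calls. This was 79655 of 155660 tiles with at least 5 reads per CpG, 155270 with all 18 libraries fitted, 208126 with no squeezing, 158818 by limma and 149606 to 402674 with a library left out. The triple mutant against W464A/W465A gave 7, then 1, 0, 0 and 0 in the same order, with 28491 tiles at an unadjusted p under 0.05, and 1 to 15 with a library left out. Against W465A/W796A it gave 603163, then 117641 with at least 5 reads, and 459803 to 618247. The contrast of the W796A effect between backgrounds gave 88489, then 18090, 0, 7 and 0 in the same order, with 257408 at an unadjusted p under 0.05, and 13504 to 204130.

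Among gained tiles, the count called higher in W465A/W796A than in W465A, 1, was 0 of 11 with at least 5 reads and 0 to 1 with a library left out. Among the other tiles, 36 became 9 of 32 with at least 5 reads, 18 with all 18 libraries, 23 with no squeezing, 17 by limma and 15 to 45 with a library left out. The alternatives for these last 2 counts were chosen after seeing the data. The cause of these shifts was not tested, apart from the smaller number of tiles at 5 reads.

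Same-numbered libraries shared little: no pair of groups had all 3 correlations of deviations over 0.1, and WT with W796A had 0.0538 to 0.0824. With the replicate number as a replicate block, the 4 contrasts gave 298923, 1, 598942 and 56112 calls, and the counts in gained and other tiles stayed at 1 and 36.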
